A study of Mus musculus with 18 samples.

Results

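The genes described here carry sodium, chloride and water across epithelia, and they were followed in a salivary gland, the stomach and the first stretch of the small intestine of mice. The set holds 10 genes of the 16593 gene symbols on the array: Scnn1a, Scnn1b and Scnn1g for the epithelial sodium channel, Cftr and Slc12a2 for chloride, and the aquaporins Aqp1, Aqp3, Aqp4, Aqp5 and Aqp8. A probe belonged to the set when the platform annotation gave it one of these symbols, which selected 17 of 25697 probes and used no measured value. The list of genes itself was chosen with earlier results of these data known. The samples were 18 Illumina bead arrays in 6 groups of 3, with Car6-/- and wild type groups for each of the submandibular gland, the stomach and the duodenum. All animals were female C57BL/6 mice aged 2 months, and Car6 encodes carbonic anhydrase VI, a secreted enzyme of saliva. The sources used here do not describe the Car6-/- allele or say whether the wild type mice were littermates. The series text counts 3 Car6-/- and 3 wild type mice, so the arrays of a group came from separate animals. On that count each mouse gave an array in every tissue, but the labels do not state which arrays share a mouse. Tissue comparisons and interactions treated the 18 arrays as independent, so their standard errors and p-values leave this sharing out.

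Salivary acini first make a fluid of near plasma composition, and the ducts then take back sodium and chloride. The ducts do so largely through the epithelial sodium channel, a complex of the α, β and γ subunits encoded by Scnn1a, Scnn1b and Scnn1g. Secretion itself runs on chloride. Slc12a2 encodes NKCC1, the basolateral cotransporter that loads cells with chloride. Cftr encodes the apical chloride and bicarbonate channel of ducts and intestinal crypts that is mutated in cystic fibrosis. Water follows through aquaporins, which differ in the cells and membranes where they sit: Aqp5 is the apical channel of salivary acini, Aqp4 lies in the basolateral membrane of mouse gastric parietal cells, and Aqp1 is abundant in capillary endothelium and red blood cells.

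Scnn1g and Scnn1b are neighbours on chromosome 7, with 96555 bases and 0 annotated genes between them, and with Aqp5 they were the members furthest above both other tissues in the submandibular gland. The sequence before the start of each of these 3 genes is shown because they share that tissue pattern. The sequences are from RefSeq (build GRCm38.p6, + strand), and 7 of the 10 members had an entry in that promoter table. Capitals mark the GC box GGGCGG on either strand.
Scnn1b, chr7:121864788-121865037: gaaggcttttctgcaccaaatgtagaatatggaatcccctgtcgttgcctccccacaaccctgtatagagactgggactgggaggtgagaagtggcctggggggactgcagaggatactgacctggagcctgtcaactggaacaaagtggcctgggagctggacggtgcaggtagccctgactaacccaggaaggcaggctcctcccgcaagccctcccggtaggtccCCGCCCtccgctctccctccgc
Scnn1g, chr7:121734229-121734419: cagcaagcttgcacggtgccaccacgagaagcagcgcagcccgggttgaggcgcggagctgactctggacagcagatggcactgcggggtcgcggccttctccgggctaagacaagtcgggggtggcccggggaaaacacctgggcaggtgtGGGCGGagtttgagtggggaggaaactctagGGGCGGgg
Aqp5, chr15:99590778-99591027: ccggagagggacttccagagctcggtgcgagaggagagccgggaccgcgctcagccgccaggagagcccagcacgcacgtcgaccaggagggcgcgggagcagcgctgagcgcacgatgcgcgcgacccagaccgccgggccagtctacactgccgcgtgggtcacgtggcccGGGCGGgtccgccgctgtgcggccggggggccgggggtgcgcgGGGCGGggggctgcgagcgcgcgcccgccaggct

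These windows are rich in G and C, at 60.8% for Scnn1b, 67.0% for Scnn1g and 78.4% for Aqp5. The GC box matched at 1 place before Scnn1b, on the opposite strand and 22 bases before the start. It matched at 2 places before Scnn1g, 39 and 8 bases before the start, and at 2 places before Aqp5, 77 and 34 bases before the start. Searched on both strands, the TATA box TATAAA, the CCAAT box CCAAT and the steroid receptor motif AGAACA had 0 matches in each of the 3 windows. Of 32851 promoter windows of 250 bases in the table, 32.7% held the GC box, 12.4% the TATA box, 33.8% the CCAAT box and 16.1% the steroid receptor motif. The Scnn1g window is shorter, 191 bases, because its table entry begins that far before the gene record, and all 3 windows end where the gene record begins. These matches describe letters and not bound sites.

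A signal below is the deposited bead intensity, with no background taken off, and a probe was called detected on an array when its deposited detection p-value was under 0.01. Detected probes numbered 7868 to 9613 per array for the submandibular gland, 10214 to 11441 for the stomach and 9648 to 11808 for the duodenum. The Car6 probe was undetected on the 3 Car6-/- submandibular arrays, at signals of 50.99 to 63.57, and detected on the 3 wild type submandibular arrays, at 106.5 to 158.2. It was undetected in the stomach and duodenum of both genotypes. Granular duct markers were detected 4 of 4 on each submandibular array and 2 or 3 of 4 on the other arrays, parietal markers 4 or 5 of 5 on each stomach array and 1 to 3 of 5 on the others, and enterocyte markers 5 of 6 on each duodenal array and 2 of 6 on each stomach array. Gastric mucous markers did not set stomach and duodenum apart, with 7 of 7 detected on each stomach array and on 5 of 6 duodenal arrays.

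Several arrays stood apart in what else they held. A list's level here is the sum of its background-corrected, normalized signals. The parotid list summed to 3946 on Car6-/- submandibular array 1 and to 664.3 on wild type submandibular array 1, against 35200 to 45010 on the other 4. Adipocyte markers summed to 8297 on wild type submandibular array 1, against 1670 to 3214 on the other 5. Wild type stomach array 3 had 10 of 10 pancreatic acinar markers detected and a sum of 70300, against 4703 to 7854 on the other stomach arrays. Goblet markers summed to 10950 there, against 399.8 to 1610 on the other 5. All duodenal arrays had 10 of 10 pancreatic acinar markers detected, with sums of 209000 to 245100. Car6-/- duodenal array 3 had a gastric mucous sum of 19210, against 95780 and 101600 on the other Car6-/- duodenal arrays and 109800 to 126800 on the wild type ones.

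**Figure D1:**
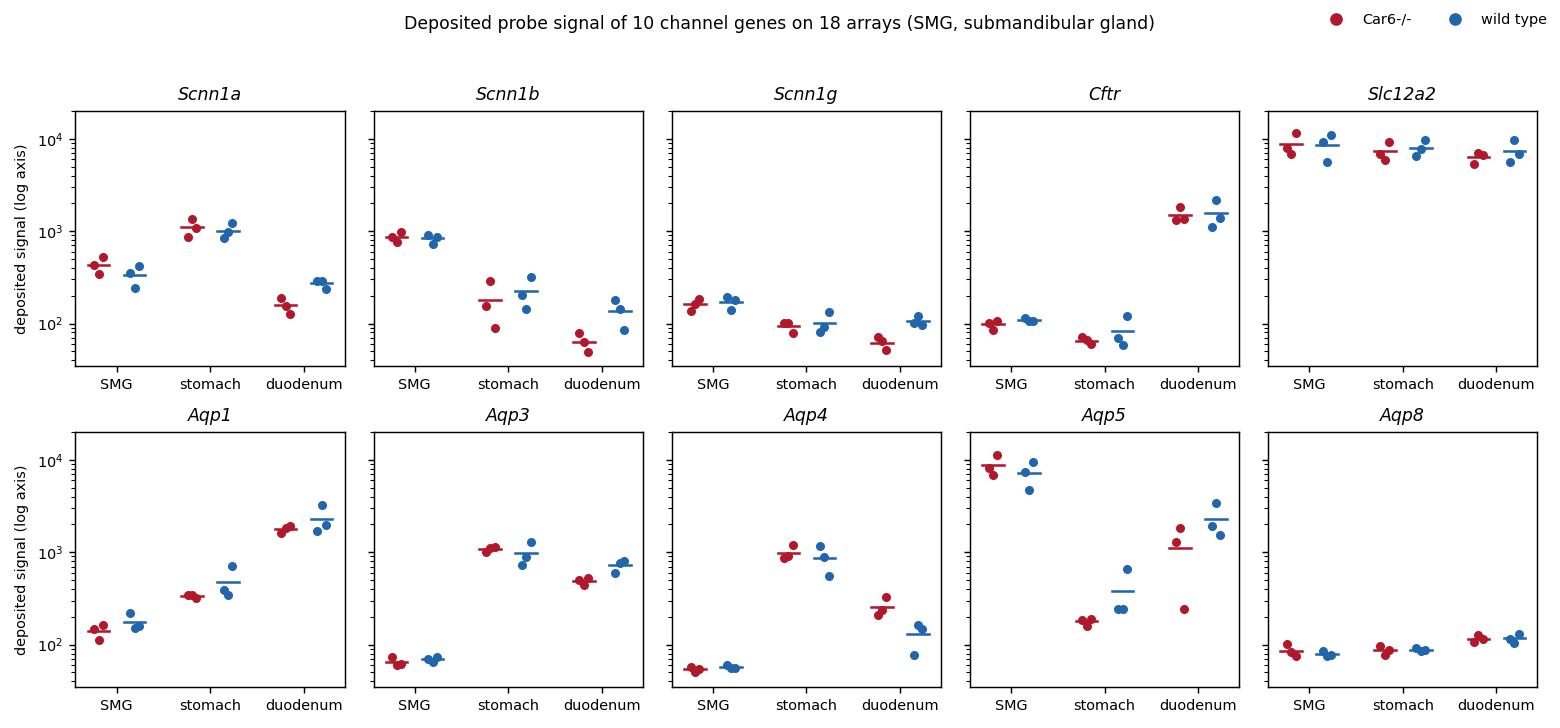
Deposited signal of the main probe of each member (log axis, intensity units) on every array, by tissue, with Car6-/- left of wild type; points are single arrays and lines the mean of 3. Scnn1b, Scnn1g and Aqp5 were highest in the submandibular gland, Aqp1 and Cftr in the duodenum, and Aqp4 in the stomach, while Slc12a2 overlapped between all tissues.

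The α subunit gene Scnn1a was measured in all 3 tissues and was lowest in the duodenum. Its signal in the submandibular gland was 432, 339.6 and 522.8 in Car6-/- mice, against 354.7, 241.2 and 420 in wild type mice. Stomach signals were 863.2, 1356 and 1089 in Car6-/- mice, against 840.4, 968.8 and 1220 in wild type mice. Duodenal signals were 188.8, 155.7 and 127.7 in Car6-/- mice, against 289.9, 288.4 and 237.9 in wild type mice. In the duodenum every Car6-/- array lay below every wild type array, while the genotypes overlapped in the raw signals of the other tissues.

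Tissues were compared on log2 signals of all 18 arrays after background correction and joint quantile normalization, with limma and Benjamini-Hochberg adjustment over 9682 genes. A difference is given with its standard error, 3 arrays against 3. Scnn1a was higher in the submandibular gland than in the duodenum by 3.36 ± 0.30 in Car6-/- mice (adjusted p = 6.38e-08) and by 1.71 ± 0.30 in wild type mice (adjusted p = 0.000137). It was also higher in the stomach than in the duodenum, by 3.40 ± 0.30 in Car6-/- mice (adjusted p = 1.22e-07) and 1.91 ± 0.30 in wild type mice (adjusted p = 0.000119). Submandibular gland and stomach did not differ beyond their spread, with differences of -0.04 (adjusted p = 0.933) and -0.20 (adjusted p = 0.602), but scaling arrays to their median in place of quantile normalization gave -0.95 (adjusted p = 0.00936) and -1.30 (adjusted p = 8e-04). In bulk tissue, fewer cells of a type and less RNA per cell cannot be told apart, here and in all results that follow.

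Between genotypes, limma on the 6 duodenal arrays put Scnn1a at a log2 difference of -1.39 ± 0.41 in Car6-/- over wild type mice (unadjusted p = 0.011, adjusted p = 0.143), which did not pass. The difference was 0.33 ± 0.13 in the submandibular gland (adjusted p = 0.505) and 0.16 ± 0.23 in the stomach (adjusted p = 1). After normalization within the submandibular gland the 2 genotypes did not overlap for Scnn1a, with the Car6-/- arrays higher. The duodenal difference passed when arrays were weighted by their quality (adjusted p = 0.0416) and when all 18 arrays were fitted together (adjusted p = 0.0185). Duodenal calls among all genes also rose strongly under both settings, which bears on every member below that passed under them.

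The β subunit gene Scnn1b had a much steeper profile. In the submandibular gland its signal was 857, 759.7 and 988.1 in Car6-/- mice, against 911.6, 734.9 and 856.4 in wild type mice. Stomach signals were 153.4, 292 and 88.37 in Car6-/- mice, the last not detected, against 205.6, 144.3 and 321.8 in wild type mice. The duodenal signals were 78.19, 63.73 and 49.36 in Car6-/- mice, none detected, against 179.5, 142.2 and 86.02 in wild type mice, the last not detected. The submandibular arrays were thus clear of all others and alike between genotypes, and the stomach arrays ranged widely within each genotype.

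Scnn1b was higher in the submandibular gland than in the stomach by a log2 difference of 4.34 ± 0.53 in Car6-/- mice (limma adjusted p = 4.6e-06) and 3.76 ± 0.53 in wild type mice (adjusted p = 2.18e-05). For a group with no detected array, a fold is given only as a lower bound, and the fitted means stand beside it. The bound is the mean of the brighter group over that of the undetected group, in log2 signal without background correction. An undetected value below the dimmest detected signal of its array is first set to that signal. The ratio was taken after quantile normalization, after median scaling and on the deposited signals as they stand, and the smallest of the 3 is printed. Scnn1b was at least 8.45-fold higher in the submandibular gland than in the duodenum of Car6-/- mice (log2 means 10.76 and 4.58, adjusted p = 4.94e-08). In wild type mice the same difference was 4.53 ± 0.53 (adjusted p = 2.49e-06), or 5.13 without wild type duodenal array 1 and 3.98 without array 3.

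Between stomach and duodenum, Scnn1b was at least 1.51-fold higher in the Car6-/- stomach (log2 means 6.43 and 4.58, adjusted p = 0.00925), and the call was lost without Car6-/- stomach array 2 (adjusted p = 0.0637). The wild type difference was 0.76 ± 0.53 (adjusted p = 0.31), so these 2 tissues were not separated there. Leaving out single Car6-/- stomach arrays also moved the submandibular over stomach difference, to 4.95 without array 2 and 3.73 without array 3.

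Markers of squamous epithelium, the lining of the forestomach, and of smooth muscle moved with Scnn1b across the stomach arrays. The squamous list, 6 or 7 of 9 markers detected on each stomach array, summed to 23650, 41400 and 4205 on Car6-/- arrays 1, 2 and 3, and to 36250, 5865 and 32200 on the wild type arrays. The 2 lowest stomach signals of Scnn1b were on Car6-/- array 3 and wild type array 2, the 2 arrays with the lowest squamous sums. Smooth muscle markers, 6 or 7 of 7 detected, also had their lowest stomach sums there, 31390 on Car6-/- array 3 and 34830 on wild type array 2, against 43060 to 46110 on the other 4. On submandibular arrays, where Scnn1b was brightest, 2 of 9 squamous markers were detected, and on duodenal arrays 0 of 9. The parts of squamous tissue and smooth muscle in the stomach values were not tested. The genotype difference for Scnn1b was -0.62 ± 0.62 in the stomach (adjusted p = 1) and 0.03 without Car6-/- array 3, and it was -0.00 ± 0.16 in the submandibular gland (adjusted p = 0.995). Scnn1b was not tested between genotypes in the duodenum, where too few arrays detected it.

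**Figure D2:**
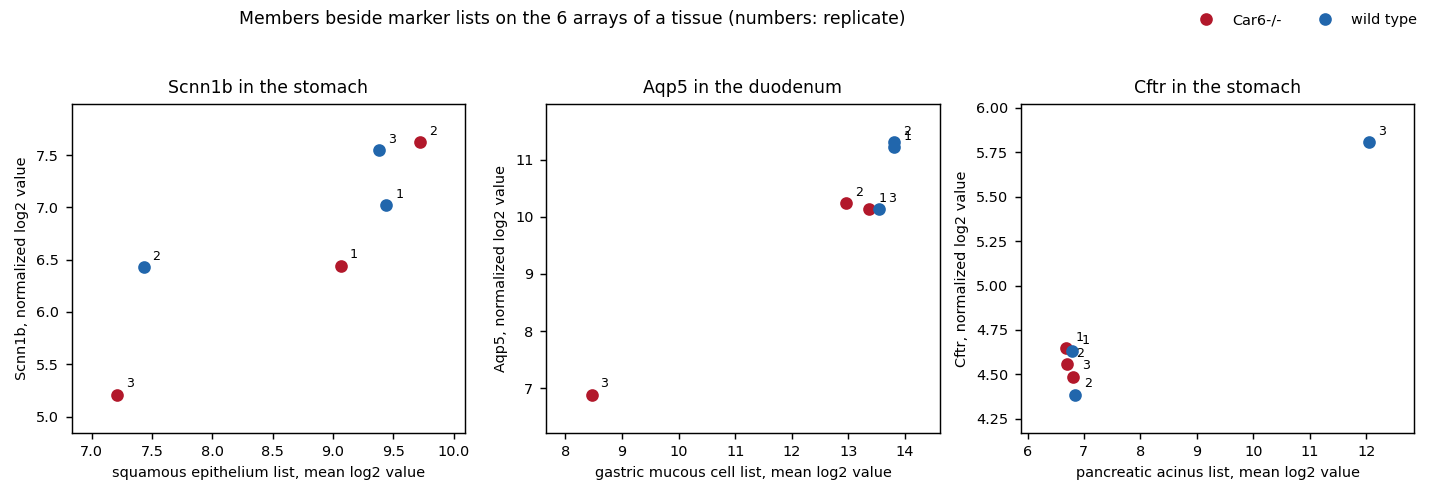
Normalized log2 level of a member (vertical axis) against the mean log2 level of a marker list (horizontal axis) on the 6 arrays of 1 tissue, Car6-/- in red and wild type in blue, with array numbers beside the points. Stomach Scnn1b was low on the 2 arrays with the lowest squamous means, 7.209 (Car6-/- array 3) and 7.429 (wild type array 2), duodenal Aqp5 was low on the array with a gastric mucous mean of 8.461, and stomach Cftr was high on the array with a pancreatic acinar mean of 12.049.

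The γ subunit gene Scnn1g followed Scnn1b in having its highest signals in the salivary gland. In the submandibular gland its signals were 135.9, 161.3 and 186.2 in Car6-/- mice, against 195.7, 139 and 180.8 in wild type mice. Stomach signals were 100.5, 101.2 and 79.43 in Car6-/- mice, none detected, against 81.15, 90.9 and 132.2 in wild type mice, with only the last detected. Duodenal signals were 70.73, 64.6 and 51.34 in Car6-/- mice, none detected, against 101.4, 121.1 and 96.77 in wild type mice, all detected. Signals near 100 lie close to the array background, so these levels carry less precision than those of Scnn1b, and detection itself separated the duodenal genotypes.

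Scnn1g was at least 1.58-fold higher in the submandibular gland than in the stomach of Car6-/- mice (log2 means 7.99 and 5.30, limma adjusted p = 1.68e-07), and its difference in wild type mice was 2.79 ± 0.25 (adjusted p = 1.18e-07). Only 1 of 3 wild type stomach arrays detected Scnn1g, and its deposited wild type signals averaged 171.9 in the gland and 101.4 in the stomach. It was at least 1.56-fold higher in the Car6-/- submandibular gland than in the Car6-/- duodenum (log2 means 7.99 and 4.51, adjusted p = 5.04e-09), and the wild type difference was 2.43 ± 0.25 (adjusted p = 5.1e-07). Stomach and duodenum of Car6-/- mice were both undetected, so no fold is given there, although the fit passed (adjusted p = 0.0155). That call was lost without Car6-/- stomach array 1 (adjusted p = 0.0587), Car6-/- stomach array 2 (adjusted p = 0.0612) or Car6-/- duodenal array 3 (adjusted p = 0.0628). In wild type mice the stomach over duodenum difference was -0.36 ± 0.25 (adjusted p = 0.307), and without wild type stomach array 3 it was -0.64 and passed (adjusted p = 0.0458).

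Scnn1g had the smallest adjusted p of all members between genotypes. In the duodenum it was at least 1.04-fold lower in Car6-/- mice (log2 means 4.58 and 6.02, unadjusted p = 0.000257, adjusted p = 0.0886), short of the threshold. With array weights the adjusted p was 0.0149 and with all 18 arrays in the fit 0.013. Scnn1g met the filter of the duodenal fit only through its wild type arrays, the group where it was higher. Its duodenal p-values are therefore not taken as support for a difference. In the submandibular gland the difference was -0.20 ± 0.18 (adjusted p = 0.708) and the genotypes overlapped.

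The chloride channel gene Cftr was bright only in the duodenum among these tissues. Its duodenal signals were 1320, 1805 and 1348 in Car6-/- mice, against 1116, 2193 and 1397 in wild type mice. Submandibular signals were 102, 85.79 and 106.2 in Car6-/- mice, against 113.7, 107.4 and 106.7 in wild type mice. Stomach signals were 71.19, 65.87 and 59.36 in Car6-/- mice, none detected, against 70.18, 58.62 and 120.9 in wild type mice, with only the last detected. Each duodenal array was far above every array of the other tissues, and the genotypes overlapped in the duodenum.

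Cftr was lower in the submandibular gland than in the duodenum by a log2 difference of -3.12 ± 0.31 in Car6-/- mice (limma adjusted p = 2.23e-07) and -3.18 ± 0.31 in wild type mice (adjusted p = 2.41e-07). It was at least 10.5-fold lower in the stomach than in the duodenum of Car6-/- mice (log2 means 4.56 and 9.97, adjusted p = 6.31e-10), and the wild type difference was -5.44 ± 0.31 (adjusted p = 9.59e-10). The submandibular gland stood above the stomach by 2.26 ± 0.31 in wild type mice (adjusted p = 1.35e-05). In Car6-/- mice the fit passed as well (log2 means 6.85 and 4.56, adjusted p = 1.15e-05), but no bound above 1 could be given, the deposited signals averaging 98.01 in the gland and 65.48 in the stomach. The fitted order duodenum, submandibular gland, stomach was the same in both genotypes, but gland and stomach signals both lay near the background. The wild type stomach signal of 120.9 was above every submandibular signal. The single stomach array with detected Cftr was wild type array 3, which also had the pancreatic acinar sum of 70300. Every duodenal array had 10 of 10 pancreatic acinar markers detected. The part of pancreas in the stomach and duodenal Cftr signals was not tested. Between genotypes Cftr differed by -0.41 ± 0.25 in the duodenum (adjusted p = 0.37) and -0.31 ± 0.17 in the submandibular gland (adjusted p = 0.579).

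The cotransporter gene Slc12a2 was bright on every array. Submandibular signals were 7978, 6792 and 11670 in Car6-/- mice, against 9318, 5637 and 10970 in wild type mice. In the stomach they were 6804, 5933 and 9208 in Car6-/- mice, against 6585, 7798 and 9717 in wild type mice. Duodenal signals were 5393, 7052 and 6706 in Car6-/- mice, against 5533, 9777 and 6864 in wild type mice. The raw groups overlapped across all tissues and genotypes, and the tissue differences below appear after normalization.

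Slc12a2 was higher in the submandibular gland than in the stomach by a log2 difference of 1.27 ± 0.19 in Car6-/- mice (limma adjusted p = 3.21e-05) and 1.14 ± 0.19 in wild type mice (adjusted p = 9.77e-05), but median scaling gave 0.74 (adjusted p = 0.018) and 0.50 (adjusted p = 0.0898). It was higher than in the duodenum by 1.74 ± 0.19 in Car6-/- mice (adjusted p = 6.98e-07) and 1.23 ± 0.19 in wild type mice (adjusted p = 4.03e-05), and median scaling kept both calls, at 0.97 and 0.61. Stomach over duodenum was 0.47 ± 0.19 in Car6-/- mice (adjusted p = 0.0505) and 0.08 ± 0.19 in wild type mice (adjusted p = 0.791). A second Slc12a2 probe, in the fit of every probe, gave 0.82 in Car6-/- mice, which passed (adjusted p = 0.0105), and 0.08 in wild type mice. The Car6-/- value of the first probe passed without any of wild type submandibular array 2, wild type stomach array 3, or wild type duodenal arrays 2 and 3, with adjusted p of 0.0349 to 0.0442. Genotype differences were 0.03 ± 0.18 in the submandibular gland (adjusted p = 0.965), -0.11 ± 0.17 in the stomach (adjusted p = 1) and -0.50 ± 0.21 in the duodenum (unadjusted p = 0.0499, adjusted p = 0.219). Between genotypes the second probe gave -0.47 in the duodenum and 0.26 in the stomach, where the sign was the opposite of the first probe's. Both of the 2 member probes that no array detected were further probes of Slc12a2.

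Aqp5, the apical water channel of salivary acini, had the largest tissue difference of the 10 genes. Submandibular signals were 8174, 6869 and 11310 in Car6-/- mice, against 7436, 4771 and 9560 in wild type mice. Stomach signals were 184.7, 161.1 and 189.2 in Car6-/- mice, against 245.6, 244.2 and 661.6 in wild type mice. Duodenal signals were 1300, 1809 and 241.6 in Car6-/- mice, against 1919, 3394 and 1526 in wild type mice. The submandibular arrays lay above all others, the Car6-/- stomach arrays lay below the wild type ones, and Car6-/- duodenal array 3 was far below the other 5 duodenal arrays.

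Aqp5 was higher in the submandibular gland than in the stomach by a log2 difference of 7.20 ± 0.64 in Car6-/- mice, which is 147-fold (limma adjusted p = 1.01e-07), and by 5.75 ± 0.64 in wild type mice, which is 53.9-fold (adjusted p = 1.51e-06). It was higher than in the duodenum by 4.80 ± 0.64 in Car6-/- mice (adjusted p = 7.39e-06) and by 2.69 ± 0.64 in wild type mice (adjusted p = 0.00195). The stomach was lower than the duodenum by -2.40 ± 0.64 in Car6-/- mice (adjusted p = 0.00546) and -3.06 ± 0.64 in wild type mice (adjusted p = 0.00162). Car6-/- duodenal array 3 weighed on both Car6-/- values: without it they were 3.71 for submandibular gland over duodenum and -3.49 for stomach over duodenum. Without Car6-/- duodenal array 1 or 2 the stomach over duodenum value was -1.88 or -1.82.

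Between genotypes, Aqp5 differed by -1.15 ± 0.35 in the stomach (unadjusted p = 0.0131, adjusted p = 1), with no overlap between the groups. Without wild type stomach array 3 the difference was -0.72, and that array also carried the high pancreatic acinar and goblet sums. Salivary acinus markers in the stomach summed to 724.1 to 1445 in Car6-/- mice, 1 of 6 detected, against 10460 on wild type array 1, with 4 of 6 detected, 1401 on wild type array 2, with 3 of 6, and 579.7 on wild type array 3. The part of these tissues in the stomach value was not tested. In the duodenum the difference was -1.82 ± 0.90 (adjusted p = 0.274), and -0.70 without Car6-/- array 3. On that array the gastric mucous sum of 19210 was joined by a chief cell sum of 554.7, against 6636 and 11730 on the other Car6-/- duodenal arrays and 16420 to 19640 on the wild type ones, and Muc5ac, a defining mucin of surface mucous cells, was undetected. Gastric mucous sums were 104900 to 116400 in the wild type stomach and 109800 to 126800 in the wild type duodenum. Aqp5 signals averaged 178.3 in the Car6-/- stomach and 383.8 in the wild type stomach, against 1117 and 2280 in the duodenum. The part of the cells that carry these markers in the duodenal Aqp5 signal was not tested. The submandibular difference was 0.36 ± 0.17 (adjusted p = 0.538), with no overlap between groups after normalization. A second Aqp5 probe gave 0.34, -0.90 and -2.37 in submandibular gland, stomach and duodenum, the same directions. In the stomach its genotypes overlapped, with a signal of 124.3 on Car6-/- array 3 and 115.9 on wild type array 1.

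Aqp4, the water channel of parietal cells in mouse stomach, was brightest in the stomach. Stomach signals were 855.7, 905.6 and 1203 in Car6-/- mice, against 1165, 896.4 and 559.9 in wild type mice. Duodenal signals were 206.9, 236.6 and 325.1 in Car6-/- mice, against 77.4, 161.5 and 148.7 in wild type mice, with 77.4 not detected. Submandibular signals were 56.99, 50.1 and 54.76 in Car6-/- mice, against 60.45, 55.9 and 56.3 in wild type mice, none detected. Every stomach array was above every duodenal array, and in the duodenum each Car6-/- array was above each wild type array.

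Aqp4 was at least 6.49-fold lower in the submandibular gland than in the stomach of Car6-/- mice (log2 means 4.47 and 9.57, limma adjusted p = 2.79e-09) and at least 5.41-fold lower in wild type mice (log2 means 4.48 and 9.32, adjusted p = 5.85e-09). Against the duodenum it was at least 1.63-fold lower in the Car6-/- submandibular gland (log2 means 4.47 and 7.21, adjusted p = 3.41e-06), and in wild type mice the fit passed (log2 means 4.48 and 5.93, adjusted p = 0.00177), but the signals were too dim to bound a fold. The stomach exceeded the duodenum by 2.37 ± 0.34 in Car6-/- mice (adjusted p = 2.82e-05) and 3.39 ± 0.34 in wild type mice (adjusted p = 1.06e-06).

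Aqp4 was the only member of the 9 tested in the duodenum whose genotype difference was above 0 there, at 1.35 ± 0.39 in Car6-/- over wild type mice (unadjusted p = 0.0102, adjusted p = 0.143). It passed with array weights (0.99, adjusted p = 0.0487) and with all 18 arrays fitted together (1.28, adjusted p = 0.0359). The sum of the parietal list ran the other way in the duodenum, at 1156 to 1629 in Car6-/- mice and 2123 to 2720 in wild type mice. Of that list 1 of 5 was detected on each Car6-/- duodenal array and 1 to 3 of 5 on the wild type ones, and the acid pump genes Atp4a and Atp4b were detected on wild type array 1 alone. Kcne2 was undetected on every duodenal array. Outside wild type array 1 the detected markers were thus only Slc26a7 or Car2. In the stomach Aqp4 differed by 0.25 ± 0.37 (adjusted p = 1) and by -0.20 without wild type array 3, the array with the lowest Aqp4 signal and a parietal sum of 41390, against 54340 to 56870 on the other 5. The part of parietal cell content in these values was not tested.

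Aqp3, a channel for water and glycerol in the basolateral membrane of epithelia, was measured in stomach and duodenum and undetected in the salivary gland. Stomach signals were 995.3, 1103 and 1129 in Car6-/- mice, against 728.1, 878.7 and 1303 in wild type mice. Duodenal signals were 500.4, 445.8 and 531.5 in Car6-/- mice, against 595, 761.8 and 806.4 in wild type mice. Submandibular signals were 73.38, 60.58 and 62.1 in Car6-/- mice, against 69.73, 64.58 and 73.73 in wild type mice. The genotypes overlapped in the stomach, and each Car6-/- duodenal array was below each wild type duodenal array.

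Aqp3 was at least 7.14-fold lower in the submandibular gland than in the stomach of Car6-/- mice (log2 means 5.16 and 9.72, limma adjusted p = 1.13e-10) and at least 5.90-fold lower in wild type mice (log2 means 5.17 and 9.47, adjusted p = 2.35e-10). Against the duodenum it was at least 2.92-fold lower in the Car6-/- gland (log2 means 5.16 and 8.28, adjusted p = 9.19e-09) and at least 5.06-fold lower in the wild type gland (log2 means 5.17 and 9.23, adjusted p = 4.08e-10). The stomach was above the duodenum by 1.44 ± 0.23 in Car6-/- mice (adjusted p = 9.78e-05), and the wild type difference was 0.24 ± 0.23 (adjusted p = 0.485). Between genotypes Aqp3 differed by -0.97 ± 0.19 in the duodenum (unadjusted p = 0.00155, adjusted p = 0.122) and by 0.25 ± 0.18 in the stomach (adjusted p = 1). The duodenal difference passed with array weights (adjusted p = 0.0247) and with all 18 arrays fitted together (adjusted p = 0.0267).

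Aqp1, the water channel of capillaries and red blood cells, was highest in the duodenum. Duodenal signals were 1634, 1807 and 1918 in Car6-/- mice, against 1701, 3229 and 1961 in wild type mice. Stomach signals were 344.8, 340.8 and 319.8 in Car6-/- mice, against 385.5, 347.2 and 703.2 in wild type mice. Submandibular signals were 146.4, 111 and 163.8 in Car6-/- mice, against 219.8, 151.7 and 157.5 in wild type mice. Tissues were well separated at the duodenum, and the stomach arrays of the 2 genotypes did not overlap. The highest stomach signal, 703.2, was on wild type array 3, which also had the pancreatic acinar sum of 70300.

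Aqp1 was lower in the submandibular gland than in the duodenum by a log2 difference of -2.56 ± 0.25 in Car6-/- mice (limma adjusted p = 1.75e-07) and -2.68 ± 0.25 in wild type mice (adjusted p = 1.31e-07). The stomach was lower than the duodenum by -2.41 ± 0.25 in Car6-/- mice (adjusted p = 7.37e-07) and -2.59 ± 0.25 in wild type mice (adjusted p = 5.65e-07). Submandibular gland over stomach was -0.14 ± 0.25 (adjusted p = 0.666) and -0.09 ± 0.25 (adjusted p = 0.793), but median scaling gave -1.08 (adjusted p = 0.00198) and -1.20 (adjusted p = 0.000712). Endothelial marker sums were 702 to 735.3 in the Car6-/- duodenum and 692.3 to 934.1 in the wild type duodenum. They were 999.8 to 1091 and 1007 to 1055 in the submandibular gland of the same genotypes. Stomach sums were 1110 to 1244 in Car6-/- mice and 1026 to 1185 in wild type mice. The parts of endothelium and of pancreas in the Aqp1 values were not tested.

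Genotype differences for Aqp1 were below 0 in each tissue and passed in none of the main fits. They were -0.53 ± 0.21 in the submandibular gland (unadjusted p = 0.0351, adjusted p = 0.509), -0.49 ± 0.23 in the stomach (adjusted p = 1, or -0.26 without wild type stomach array 3) and -0.68 ± 0.22 in the duodenum (unadjusted p = 0.0171, adjusted p = 0.154). The duodenal difference passed when a replicate block paired arrays by number. Red blood cell markers, 2 of 4 detected on submandibular arrays, summed to 8177 to 9922 in Car6-/- glands and 9152 to 20920 in wild type glands. In the duodenum they summed to 2283 to 4591 in Car6-/- mice, against 16190 on wild type array 1 and 2497 and 3452 on the other wild type arrays. Their part in these values was not tested. Stomach probes of Aqp1 disagreed, at -0.49, -0.21 and 0.17.

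Aqp8, a channel of intestinal, pancreatic and salivary epithelia, stayed near the background. Submandibular signals were 101.6, 82.36 and 75.14 in Car6-/- mice, 2 of 3 detected, against 85.46, 74.68 and 76.53 in wild type mice, 1 of 3 detected. Stomach signals were 97.28, 77.94 and 87.17 in Car6-/- mice, none detected, against 91.12, 85.2 and 87.9 in wild type mice, 1 of 3 detected. Duodenal signals were 105.7, 127.2 and 114.7 in Car6-/- mice, against 114.6, 105 and 131 in wild type mice, all detected. Only the duodenum gave a signal on every array.

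For submandibular gland over stomach of Car6-/- mice the limma fit of Aqp8 passed (log2 means 6.45 and 5.14, adjusted p = 9e-04), but the deposited signals averaged 86.36 in the gland and 87.46 in the stomach, so this difference appears only after normalization and no fold is given. The wild type difference of 0.88 ± 0.28 passed too (adjusted p = 0.0151), but not with median scaling (0.27, adjusted p = 0.302). Submandibular gland over duodenum was 0.73 ± 0.28 in Car6-/- mice (adjusted p = 0.0322) and 0.03 ± 0.28 in wild type mice (adjusted p = 0.943), but median scaling turned both below 0, to -0.04 (adjusted p = 0.899) and -0.55 (adjusted p = 0.047). The wild type value thus passed in the opposite direction on that scale, although it was 0.10 relative to the moved median of all genes. The Car6-/- call was lost without both number 1 submandibular arrays (0.47, adjusted p = 0.201) and without any of Car6-/- submandibular arrays 1 and 2 or Car6-/- duodenal arrays 1 and 3, with adjusted p of 0.0591 to 0.183. Stomach over duodenum was -0.59 ± 0.28 in Car6-/- mice (adjusted p = 0.0951), and it passed with median scaling (-0.67, adjusted p = 0.0257) and without Car6-/- submandibular array 3 (adjusted p = 0.0339). In wild type mice it was -0.85 ± 0.28 (adjusted p = 0.0285), and that call was lost without wild type stomach arrays 2 or 3 or wild type duodenal arrays 1 or 3, with adjusted p of 0.0624 to 0.123. Genotype differences were 0.35 ± 0.23 in the submandibular gland (adjusted p = 0.609) and -0.30 ± 0.27 in the duodenum (adjusted p = 0.548). A second Aqp8 probe was detected on 2 of 18 arrays and was not kept in the main fits. Its log2 means in Car6-/- mice were 4.61 in the gland, 4.71 in the stomach and 5.31 in the duodenum. For wild type mice they were 4.51, 4.61 and 5.96 in the same order. This probe put the gland lowest, the reverse of the first probe's gland calls, at values near the background.

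Across the 10 genes, none passed between genotypes in any tissue by limma. Of 8 members tested in the submandibular gland, 0 passed, where 0.099% of 7074 genes did. With an unadjusted p under 0.05 there were 2 members against 9.64% of all genes, and 2 had groups that did not overlap against 15.4%. In the stomach 0 of 7 tested members passed, against 0% of 8556 genes. There 1 member had an unadjusted p under 0.05, against 2.9%, and 2 did not overlap, against 9.01%. Of the 9 members tested in the duodenum 0 passed, against 0.0117% of 8523 genes. There 6 had an unadjusted p under 0.05, against 22.8% of all genes, and 6 did not overlap, against 29.7%, 5 of them lower (13.9% of all genes) and 1 higher (15.8%). Scnn1g, which met the filter there only through its wild type arrays, is counted in both. The number of arrays limits the precision of all these comparisons.

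The duodenum was the tissue in which the members leaned to one side. Their log2 differences were below 0 for 8 of 9, where 47.8% of all genes were below 0, and their median was -0.68 against 0.018 over all genes. The members were chosen with earlier results of these data known, and Scnn1g was kept only through its wild type arrays. This lean is therefore not a result about the set. Scnn1a, Scnn1g, Aqp1, Aqp3 and Slc12a2 were lower on every Car6-/- array and Aqp4 was higher on every Car6-/- array, in normalized values. In the submandibular gland 4 of 8 were below 0, where 48.1% of all genes were, with a median of 0.014 against 0.011 over all genes. In the stomach 4 of 7 were below 0, where 52.6% of all genes were, and the median was -0.108 against -0.015. Duodenal marker lists also separated the genotypes: enterocyte markers summed to 21460 to 32860 in Car6-/- mice and 6960 to 18750 in wild type mice, and smooth muscle markers to 17280 to 25880 in Car6-/- mice and 26220 to 32730 in wild type mice. Gastric lists were lower on every Car6-/- duodenal array too: gastric mucous sums were 19210 to 101600 in Car6-/- mice and 109800 to 126800 in wild type mice, chief cell sums 554.7 to 11730 and 16420 to 19640, and parietal sums 1156 to 1629 and 2123 to 2720 in the same genotypes. Of the parietal list, 1 of 5 markers was detected on each Car6-/- duodenal array and 1 to 3 of 5 on the wild type ones. The part of all these lists in the members' differences was not tested.

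**Figure D3:**
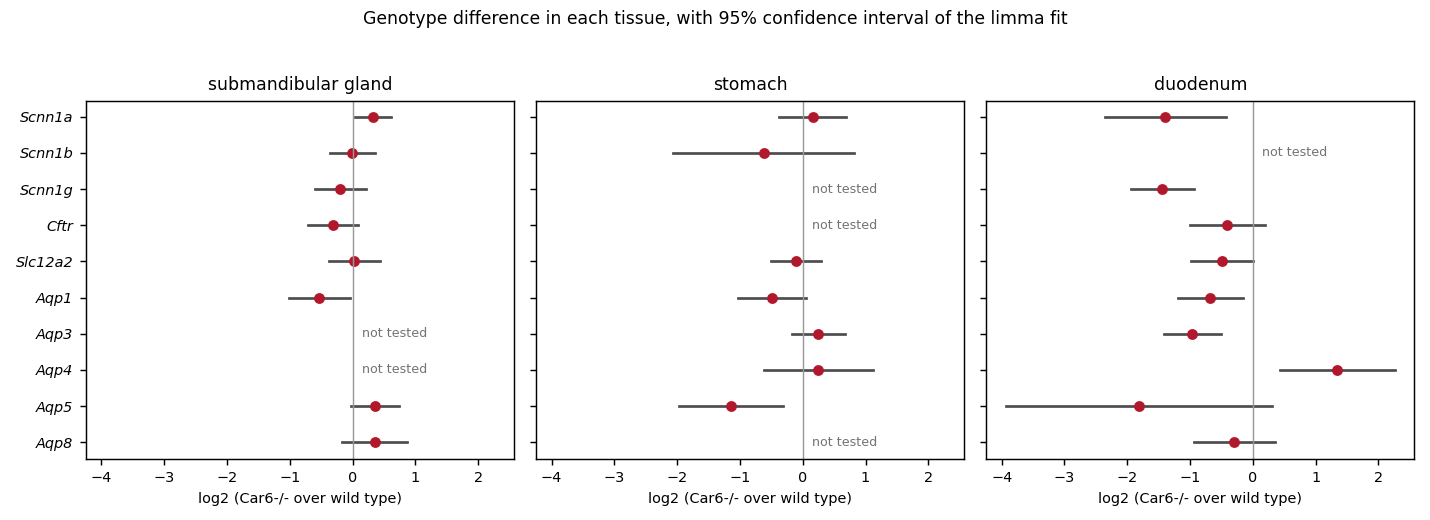
Log2 difference of Car6-/- over wild type for each member in each tissue, with the 95% confidence interval of the limma fit (3 arrays against 3); members with too few detected arrays are marked as not tested. In the duodenum 8 of 9 estimates lie below 0 and Aqp4 lies above it, and none passed adjustment in any tissue.

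An interaction contrast in the fit of 18 arrays asked whether the genotype difference itself differed between 2 tissues. For submandibular gland minus duodenum 0 of 10 members passed, against 0.207% of 9682 genes, and 6 had an unadjusted p under 0.05, against 14.9%. The 6 were Scnn1a at 1.66 ± 0.42 (adjusted p = 0.0866), Scnn1b at 1.66 ± 0.75 (adjusted p = 0.312), Scnn1g at 1.05 ± 0.35 (adjusted p = 0.163), Aqp3 at 0.94 ± 0.33 (adjusted p = 0.184), Aqp4 at -1.29 ± 0.48 (adjusted p = 0.211) and Aqp5 at 2.11 ± 0.90 (adjusted p = 0.279). For stomach minus duodenum 0 of 10 passed, against 0.0207%, and 4 had an unadjusted p under 0.05, against 12.8%. These 4 were Scnn1a at 1.49 ± 0.42 (adjusted p = 0.149), Scnn1g at 1.15 ± 0.35 (adjusted p = 0.17), Aqp3 at 1.20 ± 0.33 (adjusted p = 0.149) and Aqp4 at -1.02 ± 0.48 (adjusted p = 0.386). For submandibular gland minus stomach 0 of 10 passed, against 0.062%, and 0 had an unadjusted p under 0.05, against 4.62%. All 3 tests share arrays, so their values are not independent of each other. Aqp3 and Aqp4 were undetected on every submandibular array, and Scnn1g was detected on only 1 stomach array. A genotype difference at the background lies near 0 whatever the RNA level, so those interactions rest on the duodenal difference. Scnn1b was detected on too few duodenal arrays for the genotype test there.

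Scnn1a came nearest to a tissue difference in its response. Its submandibular minus duodenal value passed without Car6-/- duodenal array 1 (1.98, adjusted p = 0.0197) and without wild type duodenal array 3 (1.88, adjusted p = 0.0333). Its stomach minus duodenal value passed without Car6-/- duodenal array 1 (1.82, adjusted p = 0.0327). With array weights, Scnn1a passed in both (adjusted p = 0.018 and 0.0471), Aqp3 passed in both (adjusted p = 0.0271 and 0.0319), and Scnn1g passed for stomach minus duodenum (adjusted p = 0.0178). The limit given above for undetected groups applies to Aqp3 in the submandibular contrast and to Scnn1g.

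Tissue differences were common among the members, as among all genes. For submandibular gland over stomach in Car6-/- mice 8 of 10 passed, where 48.8% of genes did: 6 were higher (24.3% of genes) and 2 lower (24.4%). Wild type mice had 8 of 10 as well, where 50.8% did, 6 higher (24.1%) and 2 lower (26.7%). For submandibular gland over duodenum 10 of 10 passed in Car6-/- mice, where 58.8% did, 6 higher (31.2%) and 4 lower (27.5%). The 6 include Aqp8, whose call was lost with median scaling and whose second probe, almost undetected, ran the other way. Wild type mice had 9 of 10 there, where 55.1% did, 5 higher (28.4%) and 4 lower (26.7%). These shares of the members lie above those of all genes. The set was chosen for genes known from these epithelia and with earlier results of these data known, so the excess is not a result about the set. For stomach over duodenum 8 of 10 passed in Car6-/- mice, where 46.6% did, 5 higher (25.7%) and 3 lower (20.9%). The wild type count was 6 of 10, where 31% did, 2 higher (17.4%) and 4 lower (13.6%). Members higher in the submandibular gland than in both other tissues, in both genotypes, were Scnn1b, Scnn1g, Aqp5 and Slc12a2, although Slc12a2 missed the threshold against the wild type stomach with median scaling. Members lower there than in both were Aqp3 and Aqp4. Leaving out both submandibular arrays of number 1, which stood apart in parotid markers, gave 8 of 10 past the threshold over stomach in each genotype, 9 of 10 over duodenum in Car6-/- mice and 9 of 10 in wild type mice.

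Normalization bears on these splits. With median scaling the median of all genes moved by -0.72 in Car6-/- mice and -0.81 in wild type mice for submandibular gland over stomach, by -0.79 and -0.69 for submandibular gland over duodenum, and by 0.11 for stomach over duodenum in wild type mice. The share of calls that were higher in the gland than in the stomach was 10.2% with median scaling, against 49.9% with quantile normalization, in Car6-/- mice, and 8.25%, against 47.5%, in wild type mice. For gland over duodenum it was 13.8%, against 53.1%, in Car6-/- mice and 11.9%, against 51.5%, in wild type mice. Relative to the moved median, Scnn1a stood at -0.25 in Car6-/- mice and -0.47 in wild type mice for submandibular gland over stomach, Aqp1 at -0.38 and -0.37, and Slc12a2 at 1.45 and 1.34.

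**Figure D4:**
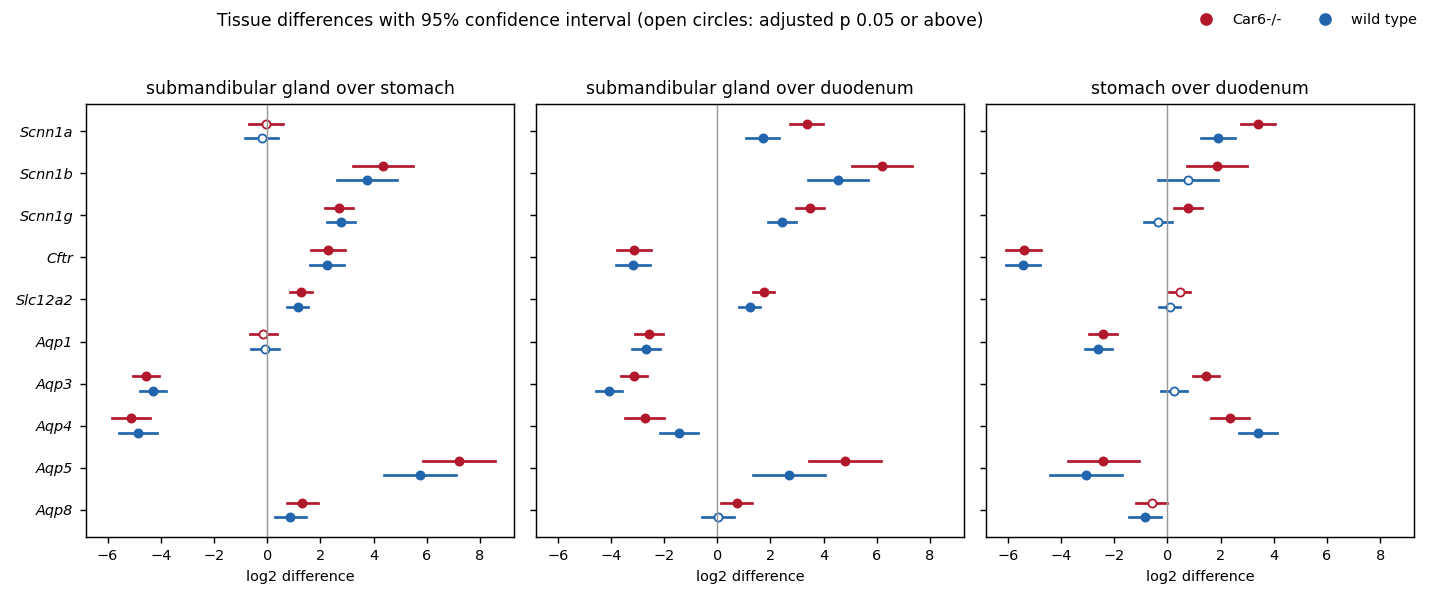
Log2 difference between tissues for each member (3 panels, 1 for each pair of tissues), Car6-/- in red above wild type in blue, from the fit of 18 arrays; open circles have an adjusted p of at least 0.05. Aqp5 and Scnn1b lie far to the submandibular side, Aqp3 and Aqp4 to the side away from it, and Cftr far to the duodenal side.

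The genes with the most similar profile over the 18 arrays were found by the root mean square difference of log2 values centred on each gene's mean, among 8954 genes. Scnn1a lay nearest to Bcat2 (0.291), a branched-chain aminotransferase, and Slc12a2 nearest to Dcxr (0.192). The nearest to Scnn1b was Tfap2a (0.721), an epithelial transcription factor, and to Scnn1g it was Cracr2b (0.346). Aqp1 lay nearest to the intestinal hormone gene Pyy (0.385), with Tph1, the serotonin enzyme of enterochromaffin cells, next (0.394). Aqp4 lay nearest to Chga (0.598), an endocrine granule protein, and Aqp3 to Fhl2 (0.304). Cftr lay nearest to Vdr (0.612), the vitamin D receptor, followed by Pigr (0.696), the epithelial receptor for IgA. The distance grows with a gene's own spread: Aqp5, with a root mean square spread of 2.822, lay nearest to Wfdc18 at 1.125, and Aqp8, with a spread of 0.563, lay nearest to Acsl4 at 0.249. Among pairs of members, Aqp8 and Slc12a2 were 0.643 apart, Scnn1g and Slc12a2 0.816, and Scnn1b and Scnn1g 1.102. These distances are descriptions over arrays that share 3 tissues.

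Genes that regulate the sodium channel were measured beside its subunits, 14 of 16 listed being on the array. By limma 0 of 11, 0 of 13 and 0 of 13 tested passed between genotypes in submandibular gland, stomach and duodenum, and 1, 0 and 3 had an unadjusted p under 0.05, where 9.64%, 2.9% and 22.8% of all genes did. In the submandibular gland all 11 were above 0, where 51.9% of all genes were, with a median of 0.19 against 0.011 over all genes. In the stomach 12 of 13 were, where 47.4% of all genes were, with a median of 0.12 against -0.015. The smallest unadjusted p in the duodenum was that of Usp2, a deubiquitinase, with signals of 1758 ± 643.2 in Car6-/- mice and 802.6 ± 397.4 in wild type mice (SD, n = 3 each) and a log2 difference of 0.90 ± 0.25 (limma adjusted p = 0.141). In wild type mice, 2 of 14 were higher and 6 lower in the submandibular gland than in the stomach, where 24.1% of all genes were higher and 26.7% lower. Furin, a protease that cleaves and activates the channel, averaged 1762 ± 396.9 in the gland and 24140 ± 1141 in the stomach, a difference of -2.62 ± 0.20 (adjusted p = 2.07e-08). Tmprss4, a membrane serine protease, was undetected in the gland and at least 5.95-fold lower there than in the duodenum (signals 56.33 ± 3.308 and 881.5 ± 303.8, adjusted p = 9.19e-13). Stk39, the SPAK kinase that phosphorylates NKCC1, was higher in the gland than in the duodenum by 2.44 ± 0.15 (adjusted p = 1.09e-09).

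Of 20 other chloride channels and carriers, 15 were on the array and 0 of 5, 0 of 9 and 0 of 7 tested passed between genotypes by limma in the same order of tissues, with 1, 1 and 4 at an unadjusted p under 0.05, against the same 9.64%, 2.9% and 22.8% of all genes. Ano1, the calcium-activated chloride channel, had the smallest unadjusted p in the duodenum, at 115.8 ± 12.91 in Car6-/- mice and 165.3 ± 37.53 in wild type mice (SD, n = 3 each), a difference of -1.05 ± 0.23 (limma adjusted p = 0.128). Tissue differences were large for some. Clca1, a secreted protein of goblet cells, was at least 64.2-fold lower in the wild type submandibular gland than in the wild type duodenum (adjusted p = 2.56e-13). Slc26a9, a chloride transporter of gastric epithelium, was at least 4.70-fold lower in the gland than in the stomach (adjusted p = 2.32e-10), and Slc26a6, an anion exchanger, was lower in the gland than in the duodenum by -2.85 ± 0.25 (adjusted p = 6.8e-08). Of 9 tested, 2 were higher and 4 lower in the wild type gland against each of the other tissues, where 24.1% of all genes were higher and 26.7% lower than in the stomach, and 28.4% and 26.7% than in the duodenum.

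The sodium pump and the potassium channels that sustain secretion numbered 13 of 14 on the array, and 0 of 10, 0 of 9 and 0 of 5 tested passed between genotypes by limma, with 0, 0 and 3 at an unadjusted p under 0.05, against 9.64%, 2.9% and 22.8% of all genes. Atp1b1, the pump's β subunit, had 20130 ± 5791 in the Car6-/- duodenum and 11950 ± 3032 in the wild type duodenum (SD, n = 3 each), a difference of 0.48 ± 0.13 (limma adjusted p = 0.134). In wild type mice 8 of 11 were higher and 0 lower in the submandibular gland than in the duodenum, where 28.4% of all genes were higher and 26.7% lower. Against the stomach 4 were higher and 6 lower, where 24.1% and 26.7% of all genes were. Fxyd2, the pump's γ subunit, was at least 56.1-fold higher in the gland than in the stomach (adjusted p = 3.51e-16) and at least 56.5-fold higher than in the duodenum (adjusted p = 3.06e-16). Kcnn4, a calcium-activated potassium channel of acinar cells, was higher in the gland than in the duodenum by 2.87 ± 0.26 (adjusted p = 1.19e-07). Kcne2 and Kcnj15, which serve potassium recycling in parietal cells, were higher in the stomach than in the duodenum, Kcne2 at least 12.3-fold (adjusted p = 5.59e-12) and Kcnj15 by 5.39 ± 0.26 (adjusted p = 1.42e-10).

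Partners and activators of CFTR had 13 of 14 genes on the array, and 0 of 5, 0 of 5 and 0 of 11 tested passed between genotypes by limma, with 2, 0 and 7 at an unadjusted p under 0.05, against 9.64%, 2.9% and 22.8% of all genes. In the duodenum 8 of 11 were above 0, where 52.2% of all genes were, with a median of 0.72 against 0.018 over all genes, in the tissue where enterocyte markers were also higher in Car6-/- mice. The part of enterocyte content in this was not tested. There Vipr1, a receptor for vasoactive intestinal peptide, had the smallest unadjusted p, with signals of 142.6 ± 23.6 in Car6-/- mice and 91.75 ± 19.59 in wild type mice (SD, n = 3 each, limma adjusted p = 0.133). In the submandibular gland Adcy6, an adenylate cyclase, had 555.2 ± 164.9 in Car6-/- mice and 352.9 ± 106.2 in wild type mice (SD, n = 3 each), a difference of 0.65 ± 0.13 (adjusted p = 0.233). Among wild type mice 2 of 11 were higher and 8 lower in the gland than in the duodenum, where 28.4% and 26.7% of all genes were. Guca2b and Guca2a, which encode the hormones uroguanylin and guanylin that open CFTR through cyclic GMP, were at least 17.2-fold (adjusted p = 5.62e-11) and 7.30-fold (adjusted p = 2.08e-09) lower in the gland. Pdzk1, a scaffold of the brush border, was at least 9.68-fold lower in the stomach than in the duodenum (adjusted p = 1.65e-09).

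Among 7 further aquaporin genes, all on the array, 0, 1 and 3 were tested between genotypes, 0 passed by limma, and 1 had an unadjusted p under 0.05, in the duodenum, where 22.8% of all genes did. Aqp11, an aquaporin of intracellular membranes, had 1212 ± 388 in the Car6-/- duodenum and 544.4 ± 186.2 in the wild type duodenum (SD, n = 3 each), a difference of 0.87 ± 0.16 (unadjusted p = 0.000911, limma adjusted p = 0.115). Aqp12, an aquaporin of pancreatic acinar cells in mice, was at least 6.78-fold lower in the wild type submandibular gland than in the wild type duodenum (adjusted p = 1.12e-06), where all 10 pancreatic acinar markers were detected, and the part of pancreas in that signal was not tested. All 3 measured genes were lower in the gland and in the stomach than in the duodenum, in both genotypes.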

How the data were processed

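Total RNA of 18 samples was labelled and hybridised to Illumina bead arrays. The authors deposited a non-normalized table with a signal intensity and a detection p-value for each of 25697 probes and array, and a table of log2 values. Their software is not stated in the labels. The function neqc (limma 3.58.1, R 4.3.3, offset 16) removed background, with negative controls inferred from the detection p-values, and quantile-normalized the intensities, for the 6 arrays of a tissue in genotype comparisons and for all 18 arrays in tissue comparisons and interactions. Probes with a detection p-value below 0.01 on 3 or more of the fitted arrays were kept, and the kept probe with the highest mean stood for its gene. Probes were named from the platform annotation, updated through the RefSeq genes of GRCm38.p6, which left 1719 without a single symbol. Tests were moderated limma tests (lmFit, eBayes) on log2 values over all genes with Benjamini-Hochberg adjustment, a threshold of 0.05 and no covariate, and were checked on simulated data. Levels of different probes were not compared.

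Members, marker lists and pathway lists were chosen with earlier results of these data known. Pathway genes were named by rule: the smallest unadjusted p of each list between genotypes, and up to 2 genes with the largest difference among those that passed between wild type tissues; some of the genes so chosen are given. Same-numbered Car6-/- and wild type submandibular arrays deviated together (correlations over genes 0.266, 0.520 and 0.235). These correlations were 0.485, 0.087 and 0.44 in the duodenum and -0.311, -0.258 and -0.295 in the stomach. Alternatives were no background correction, median scaling, an offset of 50, no filter, every probe separately, the deposited log2 values, array weights, a replicate block, 1 array left out at a time, all 18 arrays in 1 genotype fit and, chosen after seeing the data, both submandibular arrays of number 1 left out and 3 scalings for each bound of a fold.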

Additional observations from a re-analysis of the deposited data

How the results depend on the processing

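The count of members past the threshold between genotypes was 0 in each tissue and stayed 0 with any array left out. In the duodenum it was 4 with array weights, 4 with a replicate block and 4 with all 18 arrays fitted together. Duodenal calls among all genes rose in the same settings, from 1 to 848, 969 and 603, so these passes are not particular to the members. Members of the interactions numbered 0, with 2 for submandibular gland minus duodenum and 3 for stomach minus duodenum under array weights, and 0 to 1 in both with an array left out. Among all genes, calls in the submandibular gland (7) were 2 with median scaling, 23 with array weights, 30 with all 18 arrays, 0 without both number 1 arrays and 0 to 4 with an array left out. In the stomach (0) there was 1 with all 18 arrays. In the duodenum (1) calls were 5 without background correction, 5 with offset 50, 3 without the filter, 5 from the deposited log2 values, 848 with array weights, 969 with the replicate block, 603 with all 18 arrays and 0 to 62 with an array left out. Submandibular gland minus stomach (6) gave 3 with median scaling, 21 with array weights, 3 without both number 1 arrays and 3 to 8 with an array left out. Submandibular gland minus duodenum (20) gave 5 with median scaling, 496 with array weights, 40 with the replicate block, 3 without both number 1 arrays and 3 to 269 with an array left out. Stomach minus duodenum (2) gave 4 with median scaling, 5 with offset 50, 1 with every probe tested, 479 with array weights, 0 with the replicate block, 1 without both number 1 arrays and 1 to 169 with an array left out. The cause of these moves was not tested.

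Some values turned sign. Between genotypes in the submandibular gland, Scnn1b was 0.067 with median scaling, 0.056 with array weights and 0.002 with all 18 arrays, Slc12a2 was -0.064 with array weights, and Scnn1g was 0.011 without both number 1 arrays. Stomach Aqp4 was -0.046 with array weights. For submandibular gland over stomach, array weights gave Scnn1a 0.069 in Car6-/- mice and Aqp1 0.25 in wild type mice. Aqp8 in the submandibular gland over duodenum was -0.035 in Car6-/- mice and -0.549 in wild type mice with median scaling, where the wild type value passed (adjusted p = 0.047), and -0.006 in wild type mice without both number 1 arrays. With an array left out, genotype values ran from -0.128 to 0.111 for submandibular Scnn1b, -0.129 to 0.162 for submandibular Slc12a2, -0.063 to 0.298 for stomach Scnn1a, -1.258 to 0.033 for stomach Scnn1b and -0.196 to 0.563 for stomach Aqp4. Tissue values ran from -0.257 to 0.155 for Aqp1 and -0.177 to 0.179 for Scnn1a in submandibular gland over stomach (wild type and Car6-/- mice in that order), -0.233 to 0.245 for wild type Aqp8 in submandibular gland over duodenum, and -0.091 to 0.236 for wild type Slc12a2 in stomach over duodenum.

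The replicate block, pairing arrays by number, changed no member call in the submandibular gland, where the numbers deviated together. In the stomach the correlations were -0.311, -0.258 and -0.295, so same-numbered arrays did not deviate together there. In the duodenum they were 0.485, 0.087 and 0.44, above those of the gland for numbers 1 and 3 and below for number 2. The labels do not say what same-numbered arrays share. The block in the duodenum put Scnn1a (adjusted p = 0.0217), Scnn1g (0.0217), Aqp3 (0.0229) and Aqp1 (0.0461) past the limma threshold; it changed no other member call between genotypes. Signals near background limit the precision for Scnn1g, Aqp8, stomach and submandibular Cftr, and submandibular Aqp3 and Aqp4.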
